A study of Mus musculus with 18 samples.

Results

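The comparison described here is an interaction: for each gene, the change with dextran sulfate sodium (DSS) in CD103+CD11b+ cells of the mouse colon minus the change with DSS in CD103-CD11b+ cells. It was formed for all 14003 genes tested and rests on 12 of the 18 arrays of the series, 3 in each of 4 groups, chosen by their labels. A positive interaction means that a gene was raised more, or lowered less, in CD103+CD11b+ cells, and a negative one the opposite. All cells came from BALB/c mice aged 8 weeks. Lamina propria cells were freed from the colon with collagenase, gated as MHC+CD11chigh and sorted on CD103 and CD11b. The groups were CD103+CD11b+ and CD103-CD11b+ cells of untreated mice (replicates 1 to 3) and the same subsets of mice given 2% DSS (replicates 4 to 6). Each array was made from 5 ng of total RNA after amplification, with 5.5 ug of single-stranded DNA labelled. The labels give neither the length of the DSS treatment nor the number of mice behind an array, and nothing in them states that replicates came from separate mice. The p-values therefore reflect variation among these samples, part of which may be technical.

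DSS, a sulfated polysaccharide given in drinking water, damages the lining of the colon and is a widely used colitis model. CD103, the integrin chain encoded by Itgae, binds E-cadherin, and intestinal dendritic cells that carry it are known for migrating to the draining lymph node, for making retinoic acid and for favouring regulatory T cells. CD103-CD11b+ cells of such a gate are known to be mixed and can hold dendritic cells as well as cells of the monocyte and macrophage line.

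The values are log2 expression values, on which a difference of 1 is a 2-fold change, and errors beside differences are limma's standard errors. In these bulk samples fewer cells of a type and less RNA per cell cannot be told apart. Array medians lay between 3.99 and 4.09, and arrays of a group correlated at 0.965 to 0.982 over all probe sets, a description across features that are not independent. The sort was visible in Itgae, which was higher in untreated CD103+CD11b+ cells by 2.49 ± 0.13 (limma, adjusted p = 2.26e-09), whereas Itgam, the gene of CD11b, differed by -0.62 ± 0.20 (adjusted p = 0.103). The dendritic cell genes Flt3 and Zbtb46 were higher in the untreated CD103+CD11b+ cells by 1.33 (adjusted p = 0.000151) and 0.89 (adjusted p = 0.00174), and the difference of the macrophage gene Csf1r was -1.54 (adjusted p = 3.41e-05). No experiment held both conditions, so experiment and DSS cannot be told apart. The Y-linked gene Eif2s3y lay between 4.70 and 6.17 in the 6 untreated arrays and between 2.22 and 2.62 in the 6 DSS arrays, while the X-linked Xist lay between 8.30 and 9.56 and between 9.08 and 9.44. The labels give no sex, and a difference between the animals of the conditions cannot be told apart from DSS.

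The change with DSS was not shown to differ between the subsets for any single gene. At an adjusted p under 0.05 the interaction called 0 of 14003 genes (0%) by limma with Benjamini-Hochberg adjustment, and the lowest adjusted p was 0.644. At an unadjusted p under 0.05 there were 778 genes (5.56%), 140 positive (1%) and 638 negative (4.56%). That split depends on how arrays are scaled: it was 232 positive and 400 negative after a further quantile normalization, 172 and 500 with arrays centred on their median, and 275 and 355 with arrays centred on the median of the genes tested. Over all probe sets, those without a gene name included, 0 were called and 1730 had an unadjusted p under 0.05. The other 2 interactions of the series, of CD103+CD11b- cells against CD103-CD11b+ and against CD103+CD11b+ cells, also called 0 genes (0%), with 510 (3.64%) and 676 (4.83%) genes at an unadjusted p under 0.05.

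The absence of calls does not show that the subsets responded alike. The median standard error of the interaction was 0.24, against 0.17 for the change in 1 subset. For 12181 genes, 87.0% of those tested, the 95% interval of the interaction lay within -1 and 1, so that a difference of more than 2-fold between the responses lies outside it. For the other 1822 genes the interval reached past that size. The interaction itself was above 1 for 23 genes and below -1 for 24, and its median over all genes was -0.09, with 35.8% of genes above 0. With arrays centred on the median of the genes tested, the median was -0.02.

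**Figure D1:**
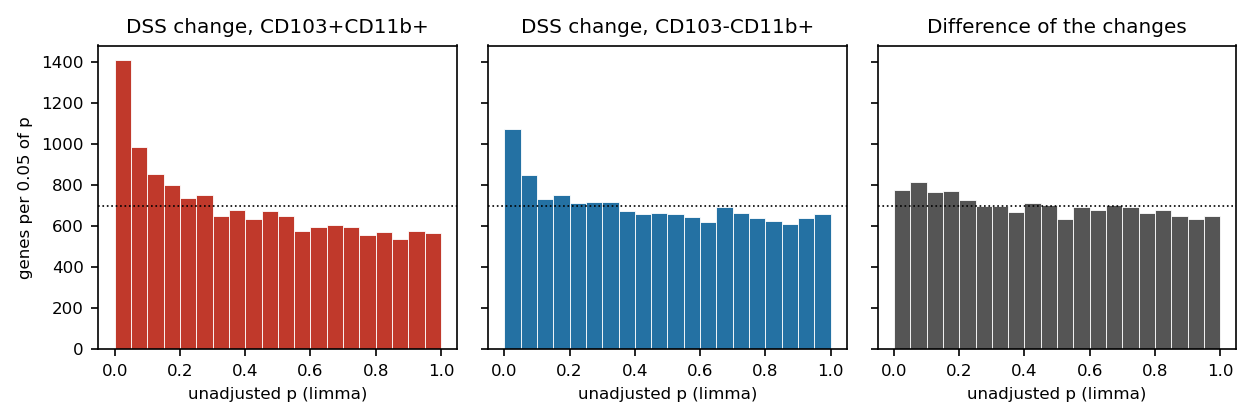
Number of genes in each 0.05 step of the unadjusted limma p-value, for the DSS change in CD103+CD11b+ cells (left), in CD103-CD11b+ cells (middle) and for the difference between them (right); the dotted line marks an even spread of the 14003 genes. The first bar holds 1410 genes (10.1%) on the left, 1074 (7.67%) in the middle and 778 (5.56%) on the right.

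Each subset on its own gave few calls. Between DSS and untreated arrays 12 genes were called in CD103+CD11b+ cells (0.0857% of those tested), 7 higher and 5 lower. In CD103-CD11b+ cells 14 genes were called (0.1%), 10 higher and 4 lower. The 22 called genes form the set followed here. Of these, 4 were called in both subsets, 8 only in CD103+CD11b+ cells and 10 only in CD103-CD11b+ cells. The 4 include the Y-linked Eif2s3y and Uty, and a difference between the animals of the conditions cannot be told apart from DSS. Being called in 1 subset is no evidence of a difference between them, since the interaction of none of the 22 passed. In 20 of the 22, the Y-linked Eif2s3y and Uty among them, both changes had the same sign, and 0 genes were called in opposite directions. That count has no share over all genes beside it and is a description only. Over all genes the changes correlated with Pearson's r of 0.350 and Spearman's rho of 0.243, a description across genes that share arrays. The counts depend on single arrays: leaving out arrays or experiments gave 5 to 50 calls in CD103+CD11b+ cells and 5 to 29 in CD103-CD11b+ cells.

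**Figure D2:**
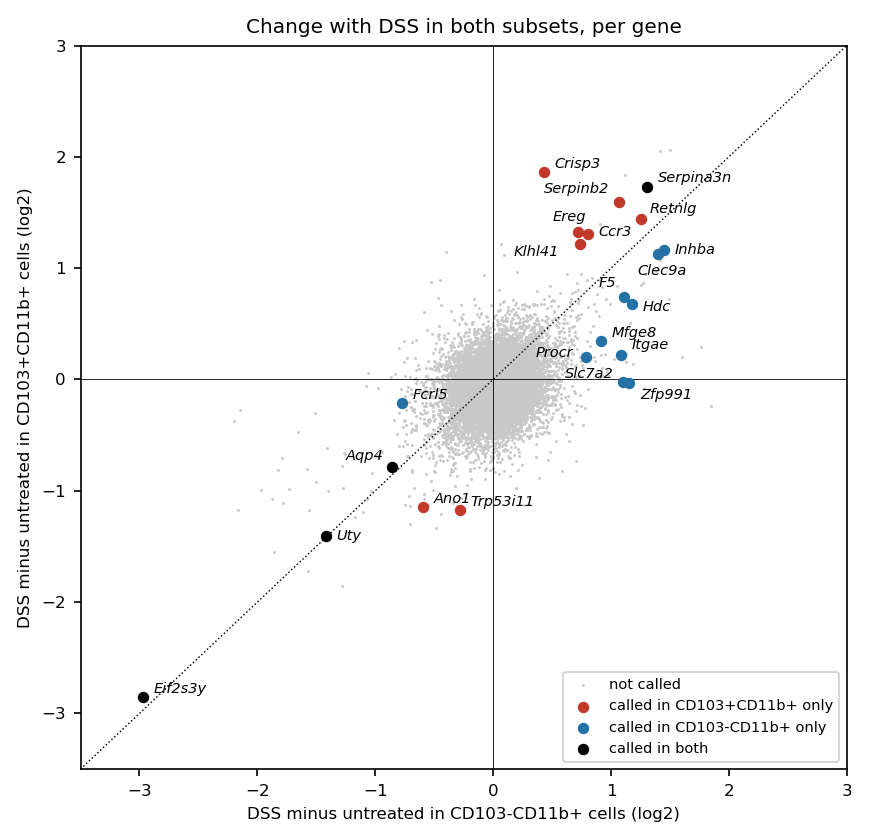
Log2 change with DSS in CD103-CD11b+ cells (horizontal axis) and in CD103+CD11b+ cells (vertical axis) for all genes tested, with the 22 genes called in at least 1 subset in colour and named; on the dotted line both changes are equal. Serpina3n, Uty, Aqp4 and Eif2s3y, called in both, lie near that line, while Crisp3 lies far above it and Itgae, Slc7a2 and Zfp991 below it.

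Serpina3n was the gene raised in both subsets. It encodes a secreted inhibitor of serine proteases and is known as an acute-phase gene. In CD103+CD11b+ cells its values were 5.98, 5.64 and 5.24 untreated and 7.23, 7.75 and 7.08 after DSS. In CD103-CD11b+ cells they were 5.68, 5.78 and 5.49 untreated and 6.82, 6.92 and 7.13 after DSS. The untreated and the DSS values did not overlap in either subset, as for 15.5% of all genes in CD103+CD11b+ and 11.5% in CD103-CD11b+ cells. It rose by 1.73 ± 0.19 (limma, adjusted p = 0.000149) and by 1.31 ± 0.19 (adjusted p = 0.00606), and the interaction was 0.42 ± 0.26, with a 95% interval of -0.13 to 0.98. On the 12 arrays alone the call in CD103-CD11b+ cells was lost (adjusted p = 0.0541).

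The genes lowered in both subsets were Eif2s3y and Uty, both on the Y chromosome, and Aqp4, a water channel. For Eif2s3y the interaction was 0.11 ± 0.42 (95% interval -0.77 to 1.00) and for Uty 0.01 ± 0.32 (-0.66 to 0.69). Aqp4 went from 4.26, 4.39 and 3.94 to 3.37, 3.54 and 3.33 in CD103+CD11b+ cells, and from 4.17, 4.46 and 4.16 to 3.27, 3.33 and 3.60 in CD103-CD11b+ cells. It fell by at least 0.78 and by at least 0.86 (limma, adjusted p = 0.0465 and 0.026). These are lower bounds, and the interactions of the 3 genes no exact sizes, because the DSS means lay under 3.51, the level of the filter on low values, which is a percentile of all values and no measured background.

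Among the 8 genes called in CD103+CD11b+ cells only, Crisp3 had the largest interaction. Crisp3 encodes a cysteine-rich secretory protein known from the granules of neutrophils and from exocrine glands. Its values in CD103+CD11b+ cells were 2.67, 3.13 and 3.54 untreated and 4.75, 4.79 and 5.40 after DSS. In CD103-CD11b+ cells they were 2.25, 2.48 and 2.50 untreated and 2.75, 3.05 and 2.72 after DSS, all under the filter level. After DSS each CD103+CD11b+ value thus stood above every value of the other groups. Crisp3 rose in CD103+CD11b+ cells by at least 1.87 ± 0.21 (limma, adjusted p = 0.000253), and the fitted interaction was 1.44 ± 0.30 with an unadjusted p of 0.00015 and an adjusted p of 0.644. Only the DSS mean of CD103+CD11b+ cells lay above the filter level, so the fitted interaction is no exact size. After DSS the subsets differed by at least 2.14 (adjusted p = 2.31e-05), and before it both means, 3.11 and 2.41, lay under the filter level (adjusted p = 0.0758).

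The other genes raised in CD103+CD11b+ cells included Ereg and Serpinb2. Ereg encodes epiregulin, a ligand of the epidermal growth factor receptor. It went from 6.70, 6.89 and 7.18 to 8.06, 8.76 and 7.93 in CD103+CD11b+ cells and from 7.07, 6.92 and 6.98 to 7.87, 7.96 and 7.30 in CD103-CD11b+ cells. The groups did not overlap in either subset, as for 15.5% of all genes in CD103+CD11b+ and 11.5% in CD103-CD11b+ cells. The rise of 1.33 ± 0.21 passed in CD103+CD11b+ cells (limma, adjusted p = 0.00946). The difference of 0.72 ± 0.21 in CD103-CD11b+ cells did not (adjusted p = 0.284). The interaction of Ereg was 0.61 ± 0.29 (95% interval -0.01 to 1.22). Serpinb2, a plasminogen activator inhibitor, rose by 1.60 ± 0.27 in CD103+CD11b+ cells (limma, adjusted p = 0.0214) and differed by 1.07 ± 0.27 in CD103-CD11b+ cells (adjusted p = 0.175). Klhl41, a kelch-family gene known from muscle, rose by 1.22 ± 0.18 in CD103+CD11b+ cells (limma, adjusted p = 0.00946), with a difference of 0.74 in CD103-CD11b+ cells.

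Retnlg and Ccr3 belong to lists of other leukocytes. Retnlg, a resistin-like gene of neutrophils, went from 5.44, 5.85 and 5.33 to 6.49, 6.98 and 7.47 in CD103+CD11b+ cells and from 6.15, 5.77 and 5.53 to 6.65, 7.08 and 7.50 in CD103-CD11b+ cells. The rise was 1.44 ± 0.25 in the first (limma, adjusted p = 0.0282) and the difference 1.26 ± 0.25 in the second (adjusted p = 0.0616), with an interaction of 0.18 ± 0.36. Ccr3, the eotaxin receptor of eosinophils, rose by 1.31 ± 0.23 in CD103+CD11b+ cells (limma, adjusted p = 0.0262) and differed by 0.81 ± 0.23 in CD103-CD11b+ cells. Over the 17 tested of 28 neutrophil genes, the mean level per array was 4.67 to 4.83 untreated and 4.95 to 5.43 after DSS in CD103+CD11b+ cells. In CD103-CD11b+ cells it was 4.72 to 4.93 and 4.97 to 5.50. The neutrophil gene S100a8 went from 4.42, 4.08 and 3.98 to 5.43, 6.35 and 6.87 in CD103+CD11b+ cells and from 5.21, 3.91 and 4.40 to 4.90, 6.22 and 6.65 in CD103-CD11b+ cells. S100a8 had the highest interaction of that list (0.63) and Mmp8 the lowest (-0.63). Of the 17 genes 10 had a positive and 7 a negative interaction. Ly6g, the marker used to identify neutrophils, stood at 5.99 to 6.46 untreated and 4.84 to 6.64 after DSS in CD103+CD11b+ cells. The neutrophil gene Camp differed by 0.21 in CD103+CD11b+ and by -0.10 in CD103-CD11b+ cells. The part of neutrophil RNA in the changes of Crisp3 and Retnlg was not tested.

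Of the 2 genes called as lowered in CD103+CD11b+ cells only, Trp53i11, a gene induced by p53, went from 8.38, 8.05 and 7.62 to 6.80, 7.06 and 6.68. In CD103-CD11b+ cells it was 7.28, 7.34 and 7.18 untreated and 6.86, 6.89 and 7.22 after DSS. The untreated CD103+CD11b+ cells thus stood above all other groups, and after DSS their values of 6.68 to 7.06 lay around those of the CD103-CD11b+ cells. Trp53i11 fell by 1.17 on the log2 scale (limma, adjusted p = 0.00946) and its interaction was -0.89 ± 0.26 (unadjusted p = 0.00271, adjusted p = 0.869). Ano1, a calcium-activated chloride channel known from epithelium and pacemaker cells, fell by 1.14 in CD103+CD11b+ cells (limma, adjusted p = 0.0465) and differed by -0.59 ± 0.21 in CD103-CD11b+ cells. The 26 tested genes of the epithelium list had a median DSS difference of -0.45 in CD103+CD11b+ and -0.25 in CD103-CD11b+ cells. Over all genes these medians were -0.06 and 0.03. On that list 0 genes were called in either DSS change. The part of epithelial RNA in the Ano1 change was not tested.

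Itgae led the genes called in CD103-CD11b+ cells only. Its values were 6.45, 6.24 and 6.37 in untreated CD103-CD11b+ cells and 7.32, 7.65 and 7.33 after DSS. In CD103+CD11b+ cells they were 8.89, 8.95 and 8.68 untreated and 8.85, 9.08 and 9.24 after DSS. The cells sorted as CD103-negative thus carried more Itgae transcript after DSS, while all their values stayed under those of the CD103+CD11b+ cells. Itgae rose by 1.08 ± 0.13 in CD103-CD11b+ cells (limma, adjusted p = 0.00103) and differed by 0.22 ± 0.13 in CD103+CD11b+ cells (adjusted p = 0.606). The interaction was -0.87 ± 0.19 (95% interval -1.26 to -0.47, unadjusted p = 0.000201, adjusted p = 0.644), and the difference between the subsets was 2.49 untreated and 1.62 after DSS. Under the 29 alternatives tried, the Itgae interaction ranged from -1.01 to -0.74. The rise in CD103-CD11b+ cells kept an adjusted p under 0.05 in the alternatives that could be fitted for it, which leave out the fixed replicate block. Itgam and Itgax, which encode CD11b and CD11c, had interactions of -0.03 ± 0.29 and -0.16 ± 0.23, and the sign of both turned when single arrays were left out.

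Procr and Mfge8 were also called in CD103-CD11b+ cells only, where they rose from levels below those of untreated CD103+CD11b+ cells. Procr encodes the endothelial protein C receptor, which is also carried by some dendritic cells. It went from 8.80, 8.68 and 8.37 to 9.39, 9.40 and 9.42 in CD103-CD11b+ cells and from 9.47, 9.36 and 9.28 to 9.57, 9.61 and 9.54 in CD103+CD11b+ cells. The values did not overlap between conditions in CD103+CD11b+ cells either, as for 15.5% of all genes there. Procr rose by 0.79 ± 0.13 in CD103-CD11b+ cells (limma, adjusted p = 0.017), and its interaction was -0.59 ± 0.18 (unadjusted p = 0.00415, adjusted p = 0.869). Mfge8 encodes a bridging protein for the uptake of dying cells. It went from 8.31, 8.09 and 8.15 to 9.24, 9.16 and 8.90 in CD103-CD11b+ cells, a rise of 0.92 ± 0.16 (limma, adjusted p = 0.0343), and its interaction was -0.57 ± 0.23 (unadjusted p = 0.0236). Both were higher in untreated CD103+CD11b+ cells, Procr by 0.75 (limma, adjusted p = 0.00163) and Mfge8 by 0.94 (adjusted p = 0.00205). After DSS these differences were 0.17 (adjusted p = 0.819) and 0.37 (adjusted p = 0.457).

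Slc7a2 and Zfp991 were the 2 genes of the set whose fitted changes had opposite signs. The change in CD103+CD11b+ cells was called for neither, so the signs show no opposite response. Slc7a2, a carrier of arginine and other cationic amino acids, went from 3.62, 3.95 and 4.08 to 5.04, 4.42 and 5.49 in CD103-CD11b+ cells, whereas the 6 CD103+CD11b+ values lay between 3.30 and 3.63. It rose by 1.10 ± 0.20 in CD103-CD11b+ cells (limma, adjusted p = 0.0422), with a fitted interaction of -1.13 ± 0.29 (adjusted p = 0.787). The CD103+CD11b+ values of Slc7a2 lay around the filter level of 3.51, so its fitted interaction is no exact size. Zfp991, a zinc finger gene, rose in CD103-CD11b+ cells by at least 1.16 ± 0.20 (limma, adjusted p = 0.0283), with a fitted interaction of -1.19 ± 0.28 (adjusted p = 0.787). Its CD103+CD11b+ values lay between 3.15 and 3.68, around the filter level, so this is no exact size.

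Inhba, Clec9a, Hdc and F5 rose in CD103-CD11b+ cells with differences in the same direction in CD103+CD11b+ cells. Inhba encodes the subunit of activin A, a ligand of the TGF-beta family. It went from 8.08, 7.57 and 8.32 to 9.0, 9.55 and 9.77 in CD103-CD11b+ cells and from 6.32, 6.81 and 6.19 to 7.46, 7.51 and 7.86 in CD103+CD11b+ cells. The values did not overlap in either subset, as for 11.5% of all genes in CD103-CD11b+ and 15.5% in CD103+CD11b+ cells. The rise was 1.45 ± 0.24 in CD103-CD11b+ cells (limma, adjusted p = 0.017). In CD103+CD11b+ cells the difference was 1.17 ± 0.24 (adjusted p = 0.0817), and the interaction was -0.29 ± 0.33. Clec9a, the dead-cell receptor of cDC1, the cross-presenting conventional dendritic cells, rose by 1.40 ± 0.26 in CD103-CD11b+ cells (limma, adjusted p = 0.0451) and differed by 1.13 ± 0.26 in CD103+CD11b+ cells (adjusted p = 0.155). Hdc, which makes histamine, rose by 1.18 ± 0.22 and coagulation factor F5 by 1.11 ± 0.21 in CD103-CD11b+ cells (limma, adjusted p = 0.042 and 0.0451), with differences of 0.67 and 0.74 in CD103+CD11b+ cells. Hdc stands on the eosinophil and mast cell list, whose 11 tested of 21 genes had a mean level of 4.87 to 4.99 untreated and 5.29 to 5.52 after DSS in CD103-CD11b+ cells. In CD103+CD11b+ cells that level was 4.91 to 5.03 and 5.09 to 5.33, and its part in the Hdc and Ccr3 changes was not tested. The last of the genes called in CD103-CD11b+ cells, the Fc receptor-like gene Fcrl5, fell by at least 0.77 (limma, adjusted p = 0.0481).

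Most of these calls were lost when 1 of several arrays was left out. For some genes these included arrays of the other subset, which are not in the contrast. The calls of Crisp3 in CD103+CD11b+, Itgae in CD103-CD11b+, and Serpina3n and Eif2s3y in both subsets held when any 1 array of the 12 was left out. In CD103+CD11b+ cells the call was lost without replicate 1, 2 or 5 for Ereg (adjusted p up to 0.0818), without 1, 2 or 6 for Klhl41 (up to 0.0598), without 1, 3, 5 or 6 for Retnlg (up to 0.181), without 1, 2, 4 or 6 for Trp53i11 (up to 0.0816) and without 1, 4, 5 or 6 for Uty (up to 0.0739). Ccr3 lost it without any replicate but 3 (up to 0.137) and Serpinb2 without any but 2 (up to 0.117). In CD103-CD11b+ cells the call was lost without replicate 2, 5 or 6 for Inhba (up to 0.0978), without 3, 4 or 6 for Zfp991 (up to 0.171), without 2, 3, 4 or 5 for Aqp4 and Mfge8 (up to 0.118 and 0.146), without 3, 4, 5 or 6 for Procr and Uty (up to 0.0883 and 0.101), and without any of the 6 for Hdc (up to 0.191). The calls of Ano1, Aqp4 in CD103+CD11b+ cells, Clec9a, F5, Fcrl5 and Slc7a2 were lost without any of 7 to 11 of the 12 arrays, with adjusted p-values up to 0.23, 0.23, 0.208, 0.17, 0.214 and 0.191 in that order.

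**Figure D3:**
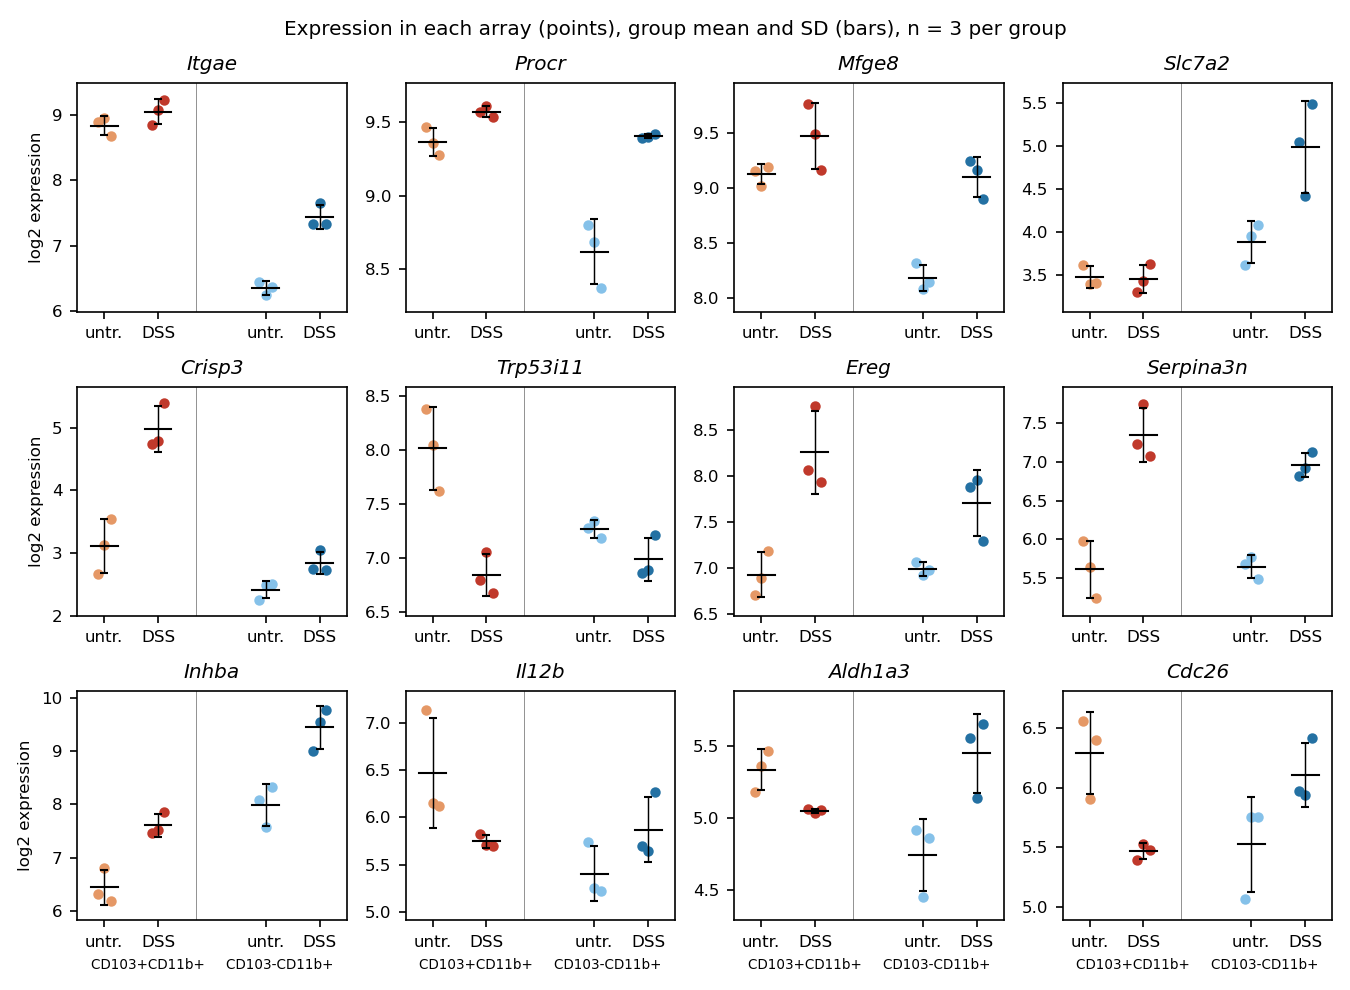
Log2 expression of 12 genes in each array (points) of untreated (untr.) and DSS-treated CD103+CD11b+ cells (left pair) and CD103-CD11b+ cells (right pair), with the group mean (long line) and SD (error bar), 3 arrays in each group; the vertical scale differs between panels and does not start at 0. Itgae, Procr and Mfge8 went up mainly on the right, Crisp3 on the left, Serpina3n on both sides, and Il12b, Aldh1a3 and Cdc26 show opposite slopes that did not pass the test.

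Promoter sequences are printed for 1 gene of each pattern of calls, Serpina3n called in both subsets, Crisp3 in CD103+CD11b+ cells and Procr in CD103-CD11b+ cells. RefSeq's table for build GRCm38.p6 held a window for 17 of the 22 genes, and the 250 bases before the gene's start are shown 5′ to 3′ on the gene's strand. They lie at chr12:104406458-104406707 on the plus strand, chr17:40242289-40242538 on the minus strand and chr2:155750967-155751216 on the plus strand, in this order. Capitals mark matches on either strand to the AP-1 motif TGANTCA, the NF-kappaB consensus, the STAT motif TTCNNNGAA or the C/EBP motif TTGCNNAA.
Serpina3n: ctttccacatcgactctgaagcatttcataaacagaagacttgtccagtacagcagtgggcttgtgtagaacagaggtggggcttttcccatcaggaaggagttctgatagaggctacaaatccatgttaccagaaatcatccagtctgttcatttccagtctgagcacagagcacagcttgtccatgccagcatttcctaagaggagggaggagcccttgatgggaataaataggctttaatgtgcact
Crisp3: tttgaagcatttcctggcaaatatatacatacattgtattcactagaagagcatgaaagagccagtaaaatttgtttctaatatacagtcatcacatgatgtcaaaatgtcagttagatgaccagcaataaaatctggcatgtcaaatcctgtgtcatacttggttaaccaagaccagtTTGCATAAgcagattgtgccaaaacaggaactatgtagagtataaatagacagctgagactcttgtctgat
Procr: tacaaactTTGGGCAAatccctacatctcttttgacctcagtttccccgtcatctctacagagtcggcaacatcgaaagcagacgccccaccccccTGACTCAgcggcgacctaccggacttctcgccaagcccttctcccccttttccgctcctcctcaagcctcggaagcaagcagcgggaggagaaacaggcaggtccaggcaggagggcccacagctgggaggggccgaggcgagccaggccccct
The Serpina3n window held 0 matches to any of the 4 motifs, which says only that these letters are not in this window. The Crisp3 window held 1 C/EBP match, and the Procr window 1 AP-1 and 1 C/EBP match that did not overlap. Of 32851 windows of this length in the table, 6.75% held an AP-1 match, 7.25% an NF-kappaB match, 7.02% a STAT match and 9.56% a C/EBP match. A match describes letters in this window and says nothing about binding.

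The genes of lowest p in the interaction, 15 in each direction, were chosen by this contrast, so their values are a description and support nothing. In 13 of the 15 positive and 14 of the 15 negative genes the DSS differences in the subsets had opposite signs, which a choice of the extremes of their difference favours. Of the 30 genes 1 positive and 3 negative ones were called in a DSS change. Adjusted p-values ran from 0.644 to 0.869, so none was called.

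Among the negative genes, Cdc26, a subunit of the anaphase-promoting complex, had the lowest p of all genes (0.00012). It went from 6.56, 5.91 and 6.40 to 5.40, 5.53 and 5.48 in CD103+CD11b+ cells and from 5.07, 5.75 and 5.76 to 5.97, 5.94 and 6.42 in CD103-CD11b+ cells. The order of the subsets was reversed after DSS, with an interaction of -1.41 ± 0.29 (95% interval -2.01 to -0.80, limma, adjusted p = 0.644). Aldh1a3, which makes retinoic acid from retinal, went from 5.18, 5.36 and 5.46 to 5.06, 5.03 and 5.06 in CD103+CD11b+ cells and from 4.92, 4.45 and 4.86 to 5.56, 5.14 and 5.65 in CD103-CD11b+ cells. Its interaction was -0.99 ± 0.22 (adjusted p = 0.644). Ffar2, a receptor for short-chain fatty acids, went from 4.82, 4.80 and 5.33 to 4.17, 4.02 and 4.34 in CD103+CD11b+ cells and from 3.68, 3.83 and 4.15 to 3.89, 4.38 and 4.03 in CD103-CD11b+ cells, with an interaction of -1.02 ± 0.26 (adjusted p = 0.787). Ffar2 was higher in untreated CD103+CD11b+ cells by 1.10 (limma, adjusted p = 0.00157), a difference of 0.07 after DSS (adjusted p = 0.974). The hexosamine enzyme Pgm3 (-0.98), the kinesin Kif1a (-0.89), the secreted hormone Stc1 (-0.98) and the cytidine deaminase relative Apobec2 (-0.80) were also among the negative genes, with adjusted p-values of 0.767 to 0.808.

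After Crisp3, the positive genes were led by Slc9a3r2, a scaffold of membrane transporters. It went from 5.03, 5.04 and 5.23 to 5.46, 5.39 and 5.50 in CD103+CD11b+ cells and from 5.91, 6.53 and 5.88 to 5.65, 5.40 and 4.99 in CD103-CD11b+ cells. The subset difference of -1.0 in untreated cells (limma, adjusted p = 0.00421) was 0.10 after DSS (adjusted p = 0.962), and the interaction was 1.11 ± 0.27 (adjusted p = 0.787). The carnitine carrier Slc22a5 had an interaction of 1.02 ± 0.25 and the lysosomal protease Ctsf one of 0.63 ± 0.19. Dvl2, a transducer of Wnt signals, went from 6.02, 6.07 and 6.29 to 5.65, 5.42 and 5.54 in CD103-CD11b+ cells (-0.59 ± 0.12, limma, adjusted p = 0.0666), with values of 5.62 to 5.88 in CD103+CD11b+ cells and an interaction of 0.54 ± 0.17.

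**Figure D4:**
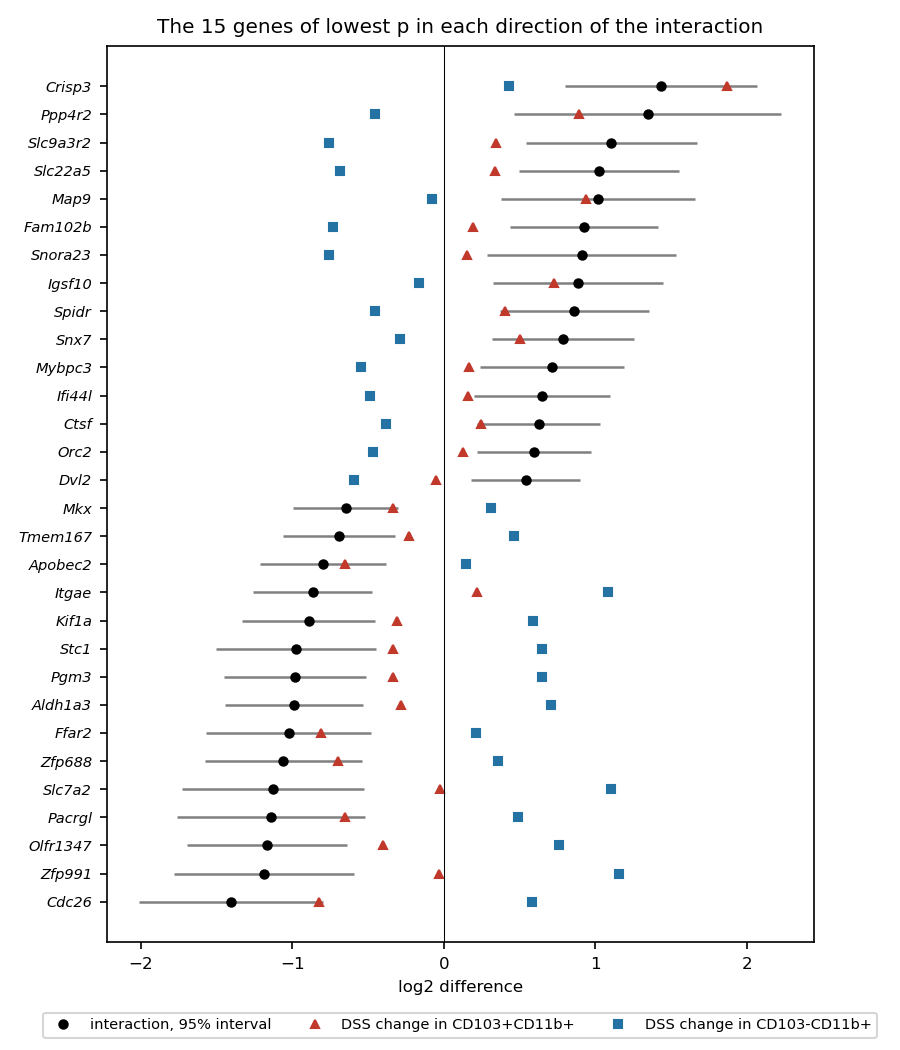
Log2 interaction (circles) with its 95% interval (lines), and the DSS changes in CD103+CD11b+ cells (triangles) and CD103-CD11b+ cells (squares) that it is the difference of, for the 15 genes of lowest p in each direction. No interval includes 0 before adjustment, and no adjusted p was under 0.644.

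The gene lists held 718 tested genes, and 0 of them were called in the interaction (0%, as over all genes). At an unadjusted p under 0.05 there were 45 of the 718 (6.27%, against 5.56% of all genes), 4 positive and 41 negative, against 1% and 4.56% of all genes. Of the 37 lists 33 had a negative median, against a median of -0.09 over all genes, and 24 lay below that. With arrays centred on the median of the genes tested, 28 lists had a negative median. Where a median turned sign under another scaling, this is given beside it.

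The lists of dendritic cell identity are read against all genes, of which 35.8% were above 0, or 47.2% with arrays centred on the median of the genes tested. In the cDC1 programme 13 of 20 tested genes were negative, with a median of -0.19, a split like that of all genes, and 4 had an unadjusted p under 0.05, all negative: Itgae, Xcr1, Btla and Id2. Xcr1, the chemokine receptor of cDC1, went from 7.31, 6.47 and 6.68 to 6.68, 7.14 and 7.31 in CD103+CD11b+ cells and from 5.63, 5.21 and 5.30 to 5.93, 6.57 and 6.40 in CD103-CD11b+ cells. The CD103-CD11b+ values did not overlap between conditions, as for 11.5% of all genes there. The Xcr1 interaction was -0.70 ± 0.30 (limma, unadjusted p = 0.0293, adjusted p = 0.869). Id2, a transcriptional regulator needed for cDC1, had an interaction of -0.44 and the inhibitory receptor Btla one of -0.56. In this list 2 genes, Itgae and Clec9a, were called as raised in CD103-CD11b+ cells (against 0.0714% of all genes) and 0 were called in CD103+CD11b+ cells. The median DSS difference over the list was 0.28 in CD103-CD11b+ and 0.09 in CD103+CD11b+ cells, against 0.03 and -0.06 over all genes. In the cDC2 programme 17 of 20 genes were negative (median -0.18), led by the lectin Mgl2, with an interaction of -0.91 ± 0.30 (unadjusted p = 0.00646) and values of 9.29, 9.77 and 9.75 untreated and 9.07, 8.73 and 8.94 after DSS in CD103+CD11b+ cells. Of the genes common to dendritic cells 14 of 17 were negative (median -0.20), among them Flt3, the growth factor receptor of the lineage (-0.56, unadjusted p = 0.0307).

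Of 25 macrophage genes tested 15 were positive and 10 negative (median 0.03), and 0 were called by limma or had an unadjusted p under 0.05; whether this list differs from the dendritic cell lists was not tested. C1qa, a chain of complement C1q, had the lowest p among them (0.0732), with an interaction of 0.47 ± 0.25. The mean level of the list was 7.17 to 7.32 in untreated and 7.22 to 7.33 in DSS CD103+CD11b+ arrays, and 7.84 to 8.30 and 7.83 to 8.12 in CD103-CD11b+ arrays. Monocyte genes had a median of -0.25, with 11 of 17 negative, and included Hp, haptoglobin. Hp went from 4.05, 3.40 and 3.04 to 4.53, 5.75 and 5.48 in CD103-CD11b+ cells (1.76 ± 0.34, limma, adjusted p = 0.0504) and from 3.26, 3.49 and 3.79 to 3.21, 4.02 and 4.21 in CD103+CD11b+ cells. Its interaction was -1.46 ± 0.48 (unadjusted p = 0.00655, adjusted p = 0.869). The untreated Hp values of both subsets lay around the filter level of 3.51, so the fitted change and interaction are no exact sizes.

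Among the inflammatory cytokines Il12b had the interaction farthest from 0. It encodes the p40 chain of interleukins 12 and 23. Its values went from 7.14, 6.15 and 6.12 to 5.83, 5.71 and 5.70 in CD103+CD11b+ cells and from 5.74, 5.26 and 5.22 to 5.69, 5.65 and 6.26 in CD103-CD11b+ cells. The untreated and DSS values did not overlap in CD103+CD11b+ cells, as for 15.5% of all genes there, and did overlap in CD103-CD11b+ cells. Its interaction was -1.19 ± 0.36 (95% interval -1.93 to -0.44, limma, unadjusted p = 0.00365, adjusted p = 0.869). Il12b was higher in untreated CD103+CD11b+ cells by 1.06 (adjusted p = 0.0199), and the difference after DSS was -0.12 (adjusted p = 0.966). In that list 18 of 25 genes were negative (median -0.16). In the list of anti-inflammatory cytokines and decoys all 19 tested genes were negative (median -0.20), with Cish (-0.77, unadjusted p = 0.00778) and Socs2 (-0.72, unadjusted p = 0.0192), feedback inhibitors of cytokine signalling, at the low end. Of the NF-kappaB and TNF feedback genes 19 of 21 were negative (median -0.20), of the maturation and costimulation genes 21 of 24 (median -0.26), and of the glycolysis and hypoxia genes 24 of 28 (median -0.30). These last included Tpi1 (-0.57) and the glucose carrier Slc2a3 (-0.55). Of all genes 35.8% were above 0, or 47.2% with arrays centred on the median of the genes tested. After a further quantile normalization the median of the anti-inflammatory list was -0.09 and that of the NF-kappaB list -0.06. For the maturation list it was then -0.16 and for the glycolysis list -0.19, against -0.03 over all genes. Hamp, hepcidin, the hormone that closes the iron exporter, had an interaction of -1.43 ± 0.53 (unadjusted p = 0.015). Its values of 7.22, 5.41 and 6.43 in untreated CD103-CD11b+ cells spread widely.

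The 4 positive list members at an unadjusted p under 0.05 were Ccl12, a monocyte-attracting chemokine (1.08 ± 0.42), the lymphocyte marker Thy1 (0.66 ± 0.30), the complement C5a receptor C5ar1 (0.58 ± 0.23) and Lss, an enzyme of sterol synthesis (0.42 ± 0.19), each with an adjusted p of 0.869. Interferon-stimulated genes were split 12 to 13 (median -0.02), and 0 of 25 had an unadjusted p under 0.05. For the retinoic acid and TGF-beta list the split was 10 to 20 (median -0.08), for MHC class II presentation 4 to 11 (median -0.08) and for pattern recognition 11 to 18 (median -0.06), close to the median of all genes. The median of the interferon list turned positive under all 3 other scalings (0.0028 to 0.072), that of pattern recognition after a further quantile normalization (0.015) and with arrays centred on the median of the genes tested (0.011), and that of MHC class II after quantile normalization (0.035).

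**Figure D5:**
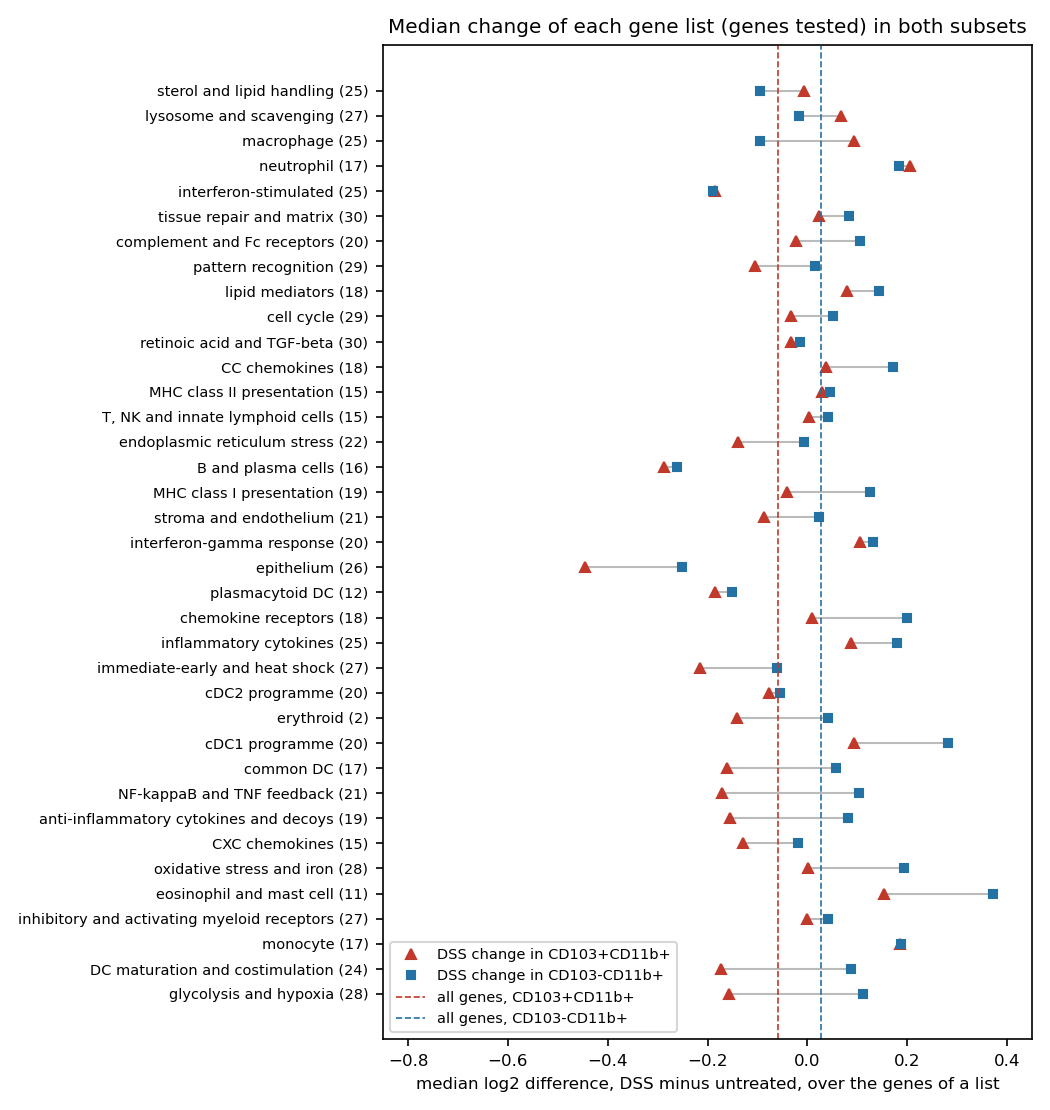
Median log2 change with DSS over the tested genes of each of the 37 lists (number of genes in brackets) in CD103+CD11b+ cells (triangles) and CD103-CD11b+ cells (squares), ordered by the median interaction; dashed lines give the medians over all genes. The cDC1 list stands at 0.09 and 0.28, the glycolysis and hypoxia list at -0.16 and 0.11, and no list held a gene called in the interaction.

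The same contrast can be read as the difference between the subsets after DSS minus that before it. Untreated, CD103+CD11b+ and CD103-CD11b+ cells differed in 575 genes (4.11%), 330 higher (2.36%) and 245 lower (1.75%) in CD103+CD11b+ cells. The direction of that split depends on how arrays are scaled. It was 242 higher and 309 lower after a further quantile normalization and 276 and 250 with arrays centred on their median. With arrays centred on the median of the genes tested it was 244 and 291. After DSS they differed in 221 (1.58%), 61 higher (0.436%) and 160 lower (1.14%). These comparisons share no array, but both use the same estimate of each gene's spread, so their calls are not independent. The comparisons had 157 calls in common, 27.3% of the untreated and 71.0% of the DSS calls. Of these, 44 were higher and 113 lower in both, all of the same sign. Of the 330 genes higher in untreated CD103+CD11b+ cells 291 were still higher after DSS in sign, and of the 245 lower 244 were still lower. Leaving out arrays or experiments gave 176 to 571 calls untreated and 39 to 287 after DSS, and the difference between the counts was not tested as such. The interaction, which tests the difference gene by gene, called 0 genes. In the cDC1 list 8 genes were higher and 3 lower in untreated CD103+CD11b+ cells, against 3 and 0 after DSS. In the macrophage list 14 were lower before and 11 after, and in the lysosome and scavenging list 9 and 8.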

How the data were processed

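Gene expression was measured on 18 Affymetrix arrays, of which 12 carry the contrast. The authors deposited log2 values per probe set, made with RMA (named in the submitters' processing notes), with a version not given in the sources used here. Background correction, quantile normalization and probe summarization are parts of RMA and could not be redone from these values. Of 34760 probe sets, 21640 had 1 gene symbol, 1321 several and 11799 none. Names were updated by gene identifier through a RefSeq table of GRCm38.p6 (21553 matched), giving 19937 genes. A probe set was kept if above the 40th percentile of all values (3.51) in at least 3 arrays, the probe set with the highest mean stood for a gene, and 14003 genes were tested. All 18 arrays entered 1 limma fit (limma 3.58.1, R 4.3.3, the package data.table in version 1.17.8) of 6 group means with eBayes. Tests were two-sided, and a gene was called at a Benjamini-Hochberg adjusted p under 0.05. The fit was tested on simulated data.

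Named genes are Itgae, Itgam and Itgax, the 15 of lowest p in each direction of the interaction, in each DSS change the 8 largest non-overlapping called rises and falls, and in each list the 3 of lowest p and the called members; the remaining called genes, markers and list members with an unadjusted p under 0.05 were added after their values were seen. The comparison, the 37 lists (897 entries, 835 names, 117 without a tested gene) and the tests were chosen with earlier results of these data known. The alternatives varied the filter, the scaling of arrays, the arrays fitted, the eBayes options, array weights, the probe set of a gene, the replicate block and the threshold, and left out arrays and experiments; the closing section gives their effect.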

Additional observations from a re-analysis of the deposited data

How the results depend on the processing

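The count of 0 interaction calls held under all 29 alternatives except the fit without DSS CD103-CD11b+ replicate 6, which called 1 gene, so the fits without single arrays or experiments ranged from 0 to 1; at an unadjusted p under 0.05 the count is 778. The other interactions ranged from 0 to 1 without arrays, and that of CD103+CD11b- against CD103+CD11b+ cells gave 2 with trend and robust eBayes and 1 with array weights. Without arrays or experiments the DSS changes gave 5 to 50 and 5 to 29 calls and the subset differences 176 to 571 and 39 to 287. The 12 calls in CD103+CD11b+ cells became 5, 7, 20, 7 and 5 without their replicate 1, 2, 3, 4 and 6, and 5, 6, 50 and 5 without experiment 1, 2, 3 and 5. The 14 calls in CD103-CD11b+ cells became 29, 6, 5, 7 and 7 without their replicate 1, 3, 4, 5 and 6, and 9, 5 and 8 without experiment 3, 5 and 6. The 575 subset calls of untreated cells became 341 and 349 without CD103+CD11b+ replicate 1 and 2, 315 without CD103-CD11b+ replicate 2, and 337 and 176 without experiment 1 and 2. The 221 after DSS became 116, 133 and 125 without CD103+CD11b+ replicate 4, 5 and 6, 128 and 97 without CD103-CD11b+ replicate 4 and 6, and 39, 114 and 43 without experiment 4, 5 and 6. On the 12 arrays alone the counts were 7 and 2, and 143 for the subset difference after DSS. Trend and robust eBayes gave 24 calls in CD103-CD11b+ cells, and array weights 367 and 366 for the subset differences. The replicate number did not meet the rule for pairing: residual correlations of same-numbered arrays ran from -0.03 to 0.31, 5 of 6 over 0.1, and 10 of 12 arrays were closest to their own number. These values do not show that pairing was absent, and the errors and p-values of single genes come from the fit without a block. With the replicate number as a fixed block the interaction called 0 genes by limma, with 942 at an unadjusted p under 0.05 and a lowest adjusted p of 0.33. With a random block 0 were called, with 894 at an unadjusted p under 0.05 and a lowest adjusted p of 0.486. A fixed block could not be fitted for the DSS changes. Of 50 named interactions 42 kept their sign throughout and 0 passed. Those that turned lay near 0: Itgam was 0.075 after quantile normalization again, 0.043 with arrays centred on the median of the genes tested (an alternative added after seeing the data) and 0.0082 with array weights. Without arrays or experiments Itgam ran from -0.17 to 0.18, Itgax from -0.30 to 0.039, Eif2s3y from -0.16 to 0.58, Uty from -0.25 to 0.35, Aqp4 from -0.053 to 0.22, Retnlg from -0.067 to 0.42, Clec9a from -0.67 to 0.045 and Inhba from -0.58 to 0.11. Calls of Crisp3 and Serpina3n in CD103+CD11b+, Itgae in CD103-CD11b+ and Eif2s3y in both subsets held in each alternative fitted for them. The cause of the other losses was not tested. The number of arrays limits the precision.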

Other observations

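The third subset of the series, CD103+CD11b- cells, gives a further reading of the genes called in the subsets compared here. Its arrays shared the fit but not the contrast. Inhba, the activin subunit, rose there by 1.84 (limma, adjusted p = 0.00106), Retnlg by 1.33 (adjusted p = 0.0413) and Serpina3n by 1.45 (adjusted p = 0.00106). Crisp3 differed by 0.01 (adjusted p = 0.998), Klhl41 by 0.01 (adjusted p = 0.997) and Trp53i11 by -0.11 (adjusted p = 0.971). Itgae differed by 0.24 (adjusted p = 0.856) and Procr by 0.25 (adjusted p = 0.822). Whether these changes differ from those in the CD11b+ subsets was tested over all genes, with 0 called.

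Sst, which encodes somatostatin, a hormone of enteroendocrine cells, was the gene called when DSS CD103-CD11b+ replicate 6 was left out, and was chosen after its values were seen. The DSS CD103-CD11b+ arrays held 6.90, 7.14 and 4.20, while all untreated CD103-CD11b+ and all CD103+CD11b+ arrays of both conditions lay between 4.07 and 4.75. Its interaction was -1.40 ± 0.68 (limma, adjusted p = 0.869) with all arrays and -2.34 ± 0.32 (adjusted p = 0.0142) without replicate 6.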
